A study of Homo sapiens with 24 samples.

Results

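A set of 10 genes of death receptor signalling was followed in the RNA of SK-HEP-1 cells with and without p53 activation and with and without repression of the long noncoding RNA PURPL. They are the receptors TNFRSF10A, TNFRSF10B, TNFRSF10C, TNFRSF10D, FAS, EDA2R, TNFRSF1A and TNFRSF21, the ligand TNFSF10 and the adaptor FADD. The 10 members were taken by symbol from the deposited table of estimated counts, which holds 58825 genes once duplicate pseudoautosomal entries are added together. SK-HEP-1 is a human tumour line established from liver, and its labels give the cell type as endothelial. All lines carried CRISPR interference (CRISPRi), in which a guide RNA brings an inactive Cas9 with a repressor to a promoter. Of the 6 lines, 2 had a non-targeting guide (NTC1 and NTC2) and 4 had a guide against PURPL (sg2, sg4, sg5 and sg6). Each line received 10 µM Nutlin-3a or its vehicle DMSO for 6 h, and each of the 12 combinations has 2 biological replicates by the labels, whose titles end in 1 or 3. Nutlin-3a keeps MDM2 from binding and degrading p53, so that p53 accumulates. The labels do not say whether a line is 1 clone or a pool, and the measurements are of polyadenylated RNA, not of receptor protein on the cell surface.

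Death receptors are cell surface proteins of the tumour necrosis factor (TNF) receptor superfamily. When a ligand such as TRAIL (the product of TNFSF10) or FAS ligand binds, the receptor's intracellular death domain recruits the adaptor FADD, which in turn recruits and activates caspase-8 and can start apoptosis. TNFRSF10A and TNFRSF10B carry death domains and pass on the TRAIL signal, whereas TNFRSF10C has none and TNFRSF10D has a truncated one, so both bind TRAIL without passing on the death signal and are called decoys. Several of these receptors, FAS and TNFRSF10B among them, are textbook p53 target genes.

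Of the 10 members, 8 passed the filter on low counts and 2, TNFSF10 and TNFRSF10C, did not. Library totals ran from 66.4 M to 92.1 M estimated counts, with a median of 74.2 M. PURPL stood at 7.40 to 10.1 CPM (counts scaled to a common library total after TMM normalisation) in the 4 NTC libraries with DMSO and at 0.273 to 0.868 CPM in the 8 libraries of PURPL guide lines, and at 29.7 to 38.5 against 0.743 to 2.90 CPM with Nutlin-3a, so each guide line had its target lowered. The p53 target CDKN1A ranged from 71.7 to 110.4 CPM with DMSO and from 934 to 2971 CPM with Nutlin-3a, and MDM2 from 380.6 to 489.0 and from 1646 to 5139 CPM. The endothelial label was not borne out by the defining markers: PECAM1 reached at most 0.0277 CPM, CDH5 0.0591 CPM and KDR 0.0125 CPM over the 24 libraries, ERG was at 0, and 3 of 10 endothelial markers passed the filter, with a summed level of 0.416 to 0.782 CPM with DMSO and 0.393 to 1.33 CPM with Nutlin-3a. Of the leukocyte markers, 3 of 8 passed, SPI1 was at 0 and PTPRC reached at most 0.130 CPM, but CD68, a lysosomal protein gene, lay at 15.9 to 77.8 CPM, and the list summed to 16.1 to 27.3 CPM with DMSO and 19.3 to 79.1 CPM with Nutlin-3a. The hepatocyte markers (1 of 8 passed) summed to 0.715 to 2.10 and 1.09 to 4.24 CPM. Epithelial markers (4 of 5 passed) summed to 1360 to 2546 and 1749 to 9002 CPM, nearly all of it from the keratins KRT8 and KRT18, with CDH1 at 0.0596 CPM or less. Mesenchymal markers (6 of 6 passed) summed to 5696 to 7758 and 6241 to 9463 CPM, most of it from VIM and FN1, with COL1A2 at 0.260 CPM or less. The part of other cell types in the results was not tested. One library stands apart, that of sg2 with Nutlin-3a, replicate 1. Its log2 levels, set against the median library, climbed by 1.49 per 10 points of GC percentage in the transcript (-0.21 to 0.34 in the other 23), and its median correlation across genes with libraries of the same treatment was 0.904, against 0.985 to 0.993. It is called the divergent library, and the main test results of members that rest on it are given with and without it. The levels given above include it. Without it CDKN1A ran from 934 to 1544 CPM and MDM2 from 3424 to 5139 CPM with Nutlin-3a. PURPL then ran from 1.42 to 2.90 CPM in the PURPL guide lines with Nutlin-3a.

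The 4 TRAIL receptor genes lie beside each other on chromosome 8 of hg38 (positions from GENCODE release 29). TNFRSF10B spans 23020133 to 23069179, TNFRSF10C 23102590 to 23117437, TNFRSF10D 23135588 to 23164030 and TNFRSF10A 23190452 to 23225126, all on the minus strand except TNFRSF10C.

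FAS (ENSG00000026103.22) lies on chromosome 10 (88990582 to 89015785, plus strand), EDA2R (ENSG00000131080.15) on X (66595637 to 66639298, minus), and TNFRSF1A (ENSG00000067182.7) on 12 (6328757 to 6342114, minus). TNFRSF21 (ENSG00000146072.6) lies on chromosome 6 (47231532 to 47309905, minus), FADD (ENSG00000168040.4) on 11 (70203163 to 70207390, plus) and TNFSF10 (ENSG00000121858.11) on 3 (172505508 to 172523507, minus). All 10 are annotated as protein coding.

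Sequence 250 bases upstream of a RefSeq start (GRCh38.p14) was matched for 6 of them: EDA2R, FADD, FAS, TNFRSF1A, TNFRSF21 and TNFSF10. The upstream sequences of EDA2R, which rose with Nutlin-3a, of TNFRSF21, which fell, and of TNFRSF1A, whose change did not pass the test, and of FADD, called lower without the divergent library but not by the test on all libraries, are printed from the gene strand’s 5′ end up to the first annotated exon base, so that a reader can set a responding gene beside others. Capitals mark matches to GGGCGG (an SP1-type GC box) and CCAAT on either strand, so a match on the other strand reads CCGCCC or ATTGG. The regions are chrX:66639299-66639519 (EDA2R, minus strand), chr6:47309906-47310155 (TNFRSF21, minus), chr12:6342115-6342326 (TNFRSF1A, minus) and chr11:70203046-70203162 (FADD, plus).
EDA2R: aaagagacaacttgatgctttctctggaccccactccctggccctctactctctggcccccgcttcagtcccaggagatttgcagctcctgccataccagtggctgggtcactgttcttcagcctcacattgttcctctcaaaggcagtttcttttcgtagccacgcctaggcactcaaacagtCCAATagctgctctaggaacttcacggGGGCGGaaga
TNFRSF21: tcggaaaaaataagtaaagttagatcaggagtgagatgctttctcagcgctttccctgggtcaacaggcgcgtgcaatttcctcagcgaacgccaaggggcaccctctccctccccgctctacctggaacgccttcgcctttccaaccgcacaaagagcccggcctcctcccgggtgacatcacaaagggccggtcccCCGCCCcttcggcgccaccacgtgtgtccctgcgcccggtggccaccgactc
TNFRSF1A: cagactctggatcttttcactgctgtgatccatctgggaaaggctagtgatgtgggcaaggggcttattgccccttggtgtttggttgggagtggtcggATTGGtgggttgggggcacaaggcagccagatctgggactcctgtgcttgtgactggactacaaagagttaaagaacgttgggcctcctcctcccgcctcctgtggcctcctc
FADD: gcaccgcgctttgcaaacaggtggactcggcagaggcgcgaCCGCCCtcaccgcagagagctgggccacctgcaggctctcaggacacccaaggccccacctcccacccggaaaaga
In the 250-base windows GGGCGG was found in EDA2R, TNFRSF21, FADD and FAS, and in 42.6% of 35116 RefSeq promoters, while CCAAT was found in EDA2R and TNFRSF1A and in 32.0% of promoters. TATAAA was found in TNFSF10 (10.7% of promoters) and TTTGAA in FAS (13.3%), and TTTCCCGC (1.39%) and TTTGGCGC (0.55%) in none of the 6; no 2 matches overlapped. The windows of FAS, FADD and TNFSF10 hold 216, 133 and 77 bases of the gene's own annotated exons. The FAS matches, the TNFSF10 match and the FADD match to GGGCGG that is not in the printed sequence lie in those exon bases. A p53 half-site, held by 5.57% of promoters, was not matched in any of the 6 windows, which says only that these letters are not in this window.

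In untreated cells the members fell into expressed receptors, a weakly expressed remainder and a pair of genes near 0. To compare genes, CPM was divided by the length of the longest annotated transcript (CPM per kb). With DMSO the highest medians over 12 libraries were those of TNFRSF10B at 37.5 CPM per kb, TNFRSF1A, the main TNF receptor, at 32.0, FAS at 27.2 and the decoy TNFRSF10D at 25.1. In this order the ranges of TNFRSF10B and TNFRSF1A overlap, as do those of TNFRSF1A and FAS and of FAS and TNFRSF10D. FADD at 13.2 and EDA2R at 9.15 CPM per kb stood apart from their neighbours, and TNFRSF21 at 5.96 and TNFRSF10A at 5.41 overlapped. With Nutlin-3a the order began with TNFRSF10B at 85.8 and FAS at 80.3 CPM per kb, whose ranges overlap, followed by TNFRSF10D at 46.2, TNFRSF1A at 32.8, EDA2R at 26.6, TNFRSF10A at 10.7, FADD at 10.1 and TNFRSF21 at 5.10. The ranges of FAS and TNFRSF10D and of TNFRSF10D and TNFRSF1A overlap through the divergent library alone, and those of TNFRSF10A and FADD with or without it. With the mean length of coding transcripts in place of the longest, TNFRSF1A led with DMSO and FAS with Nutlin-3a, so the order among the highest genes rests on the length used.

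**Figure D1:**
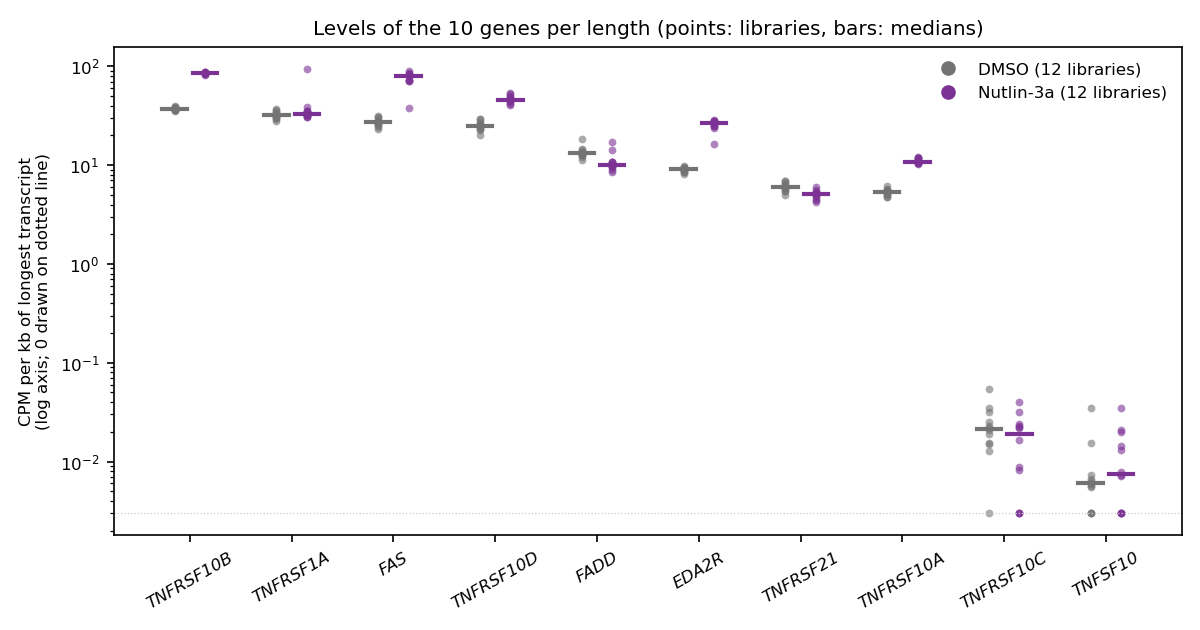
Level of each of the 10 genes as CPM per kb of the longest transcript on a log axis, for 12 DMSO libraries (grey) and 12 Nutlin-3a libraries (purple), with medians as bars and values of 0 drawn on the dotted line. TNFRSF10C and TNFSF10 lie far below the other 8 genes, and the medians of TNFRSF10B (37.5 to 85.8) and FAS (27.2 to 80.3) are the highest with Nutlin-3a.

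The TRAIL gene itself was at the edge of detection. TNFSF10 had 32 counts in all over the 24 libraries, with 0 in 7 libraries and at most 5 in 1 library, while 3 counts correspond to 0.0326 to 0.0452 CPM in these libraries. The decoy TNFRSF10C summed to 65.0 estimated counts, at most 8.25 in a library and 0 in 4, and 14 of its 24 values were not whole, as happens when reads are shared between genes; its exons overlap those of AC107959.4 and AC107959.5 by 485 and 249 bases. The TNFSF10 level stayed at or below 0.0682 CPM and that of TNFRSF10C at or below 0.0922 CPM, and neither was tested. No treatment difference could be detected for either gene at this depth. Of 8 other ligands of the superfamily, 6 were also under the filter, among them FAS ligand (FASLG) and TNF, each at 0.0231 CPM or less.

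The first comparison asked which of these genes respond to p53 activation in lines with normal PURPL, the second whether they respond in lines with PURPL repressed. In the NTC lines 5 of the 8 tested members rose and 1 fell (edgeR quasi-likelihood test, Benjamini-Hochberg adjusted p under 0.05), where 4.18% of 16371 genes rose and 4.03% fell (8.21% in either direction). In the PURPL guide lines the counts were again 5 and 1, where 17.7% of genes rose and 16.5% fell (34.2% in all). The genes that rose were the same 5 in both: TNFRSF10A, TNFRSF10B, TNFRSF10D, FAS and EDA2R. The median log2 fold change over the 8 members was 0.97 in the NTC lines and 0.97 in the PURPL guide lines, beside -0.02 and 0.05 over all genes tested. In bulk RNA, a change in the number of cells that express a gene and a change in RNA per cell cannot be told apart. The replicates behind these p-values are samples of the same line.

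TNFRSF10B, which encodes a TRAIL receptor with a death domain, rose in every pair of libraries and varied least. With DMSO the NTC libraries had 159.8, 149.1, 157.4 and 156.5 CPM, and with Nutlin-3a 337.3, 354.9, 346.6 and 365.4 CPM. The 8 libraries of PURPL guide lines ran from 147.3 CPM (median 153.5) to 164.3 CPM with DMSO and from 345.3 (median 356.8) to 366.5 CPM with Nutlin-3a. The treatments did not overlap, and the 12 Nutlin-3a libraries lay within 337.3 and 366.5 CPM. The fold was 2.25 in the NTC lines (log2 1.17, SE 0.06, edgeR adjusted p = 1.56e-08) and 2.30 in the PURPL guide lines (log2 1.20, SE 0.04, edgeR adjusted p = 9.09e-11). By line the log2 response ran from 1.16 to 1.23. An overlapping gene, RHOBTB2, shares 67 exon bases with TNFRSF10B and fell, from a mean of 8.95 to 4.74 CPM.

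TNFRSF10A, the other TRAIL receptor with a full death domain, was expressed at a lower level and about doubled. NTC libraries had 15.2, 13.9, 13.7 and 14.7 CPM with DMSO and 28.7, 31.0, 28.1 and 32.3 CPM with Nutlin-3a. Libraries of PURPL guide lines ran from 13.0 (median 14.8) to 16.8 CPM and from 28.7 (median 29.1) to 32.6 CPM. No Nutlin-3a library reached down to the DMSO range. The fold was 2.09 (log2 1.06, SE 0.09, edgeR adjusted p = 1.25e-06) in the NTC lines and 2.06 (log2 1.04, SE 0.06, edgeR adjusted p = 1.08e-08) in the PURPL guide lines. The gene AC100861.1, which shares 266 exon bases with TNFRSF10A, rose as well, from 3.26 to 5.00 CPM.

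The decoy receptor TNFRSF10D rose by a smaller fold than both. NTC libraries had 96.5, 88.1, 93.4 and 91.7 CPM with DMSO and 177.1, 161.5, 173.4 and 164.8 CPM with Nutlin-3a. Among libraries of PURPL guide lines it ran from 71.6 (median 85.2) to 104.6 CPM and from 143.9 (median 160.3) to 190.1 CPM. By line mean sg2 was lowest and sg6 highest with either treatment, at 76.2 and 97.0 CPM with DMSO and 144.8 and 176.5 CPM with Nutlin-3a. Differences among lines did not pass the test (edgeR F test, unadjusted p = 0.167 with DMSO and 0.380 with Nutlin-3a). The fold was 1.83 (log2 0.87, SE 0.09, edgeR adjusted p = 2.04e-05) in the NTC lines and 1.86 (log2 0.89, SE 0.07, edgeR adjusted p = 1.28e-07) in the PURPL guide lines. Whether its fold differs from those of TNFRSF10A and TNFRSF10B was not tested.

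FAS, the receptor of FAS ligand, rose about 3-fold. NTC libraries had 62.1, 65.6, 71.3 and 78.9 CPM with DMSO and 186.8, 215.7, 211.6 and 208.4 CPM with Nutlin-3a. In the PURPL guide lines the DMSO libraries ran from 59.7 (median 69.6) to 81.1 CPM and the Nutlin-3a libraries from 97.5 (median 195.4) to 229.0 CPM. The lowest of these, 97.5 CPM, is the divergent library, and the other 7 lay at 182.0 CPM or above, so the treatments did not overlap with or without it. The fold was 2.97 in the NTC lines (log2 1.57, SE 0.18, edgeR adjusted p = 3.79e-05) and 2.69 in the PURPL guide lines (log2 1.43, SE 0.13, edgeR adjusted p = 8.47e-07), which became 2.90 and 2.88 without the divergent library. FAS shares 380 exon bases with ACTA2, a smooth muscle actin gene on the opposite strand, which rose from a mean of 23.5 to 57.3 CPM. The libraries were stranded, but the strand setting of the counting was not stated in the labels.

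EDA2R, a receptor of the A2 form of ectodysplasin that lacks a death domain, had the largest fold of the 8 in both sets of lines. NTC libraries had 30.1, 28.4, 29.3 and 33.4 CPM with DMSO and 87.0, 98.1, 94.1 and 96.3 CPM with Nutlin-3a. Libraries of PURPL guide lines ran from 29.8 (median 31.9) to 33.8 CPM and from 57.3 (median 89.4) to 99.4 CPM. Again the lowest Nutlin-3a value belongs to the divergent library, and the next was 82.6 CPM. The fold was 3.10 (log2 1.63, SE 0.13, edgeR adjusted p = 9.24e-07) in the NTC lines and 2.71 (log2 1.44, SE 0.09, edgeR adjusted p = 2.49e-08) in the PURPL guide lines, and 3.03 and 2.85 without that library. In the latter fit FAS had the larger fold of both in the PURPL guide lines, so the order of these genes is not fixed by the data. Its ligand gene EDA had a mean of 1.97 CPM with DMSO and 1.48 CPM with Nutlin-3a in the NTC lines (log2 -0.42, SE 0.13, edgeR adjusted p = 0.0642), which passed without the divergent library (log2 -0.46, adjusted p = 0.00993), and fell in the PURPL guide lines by 0.44 on the log2 scale (SE 0.09, edgeR adjusted p = 0.0026).

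**Figure D2:**
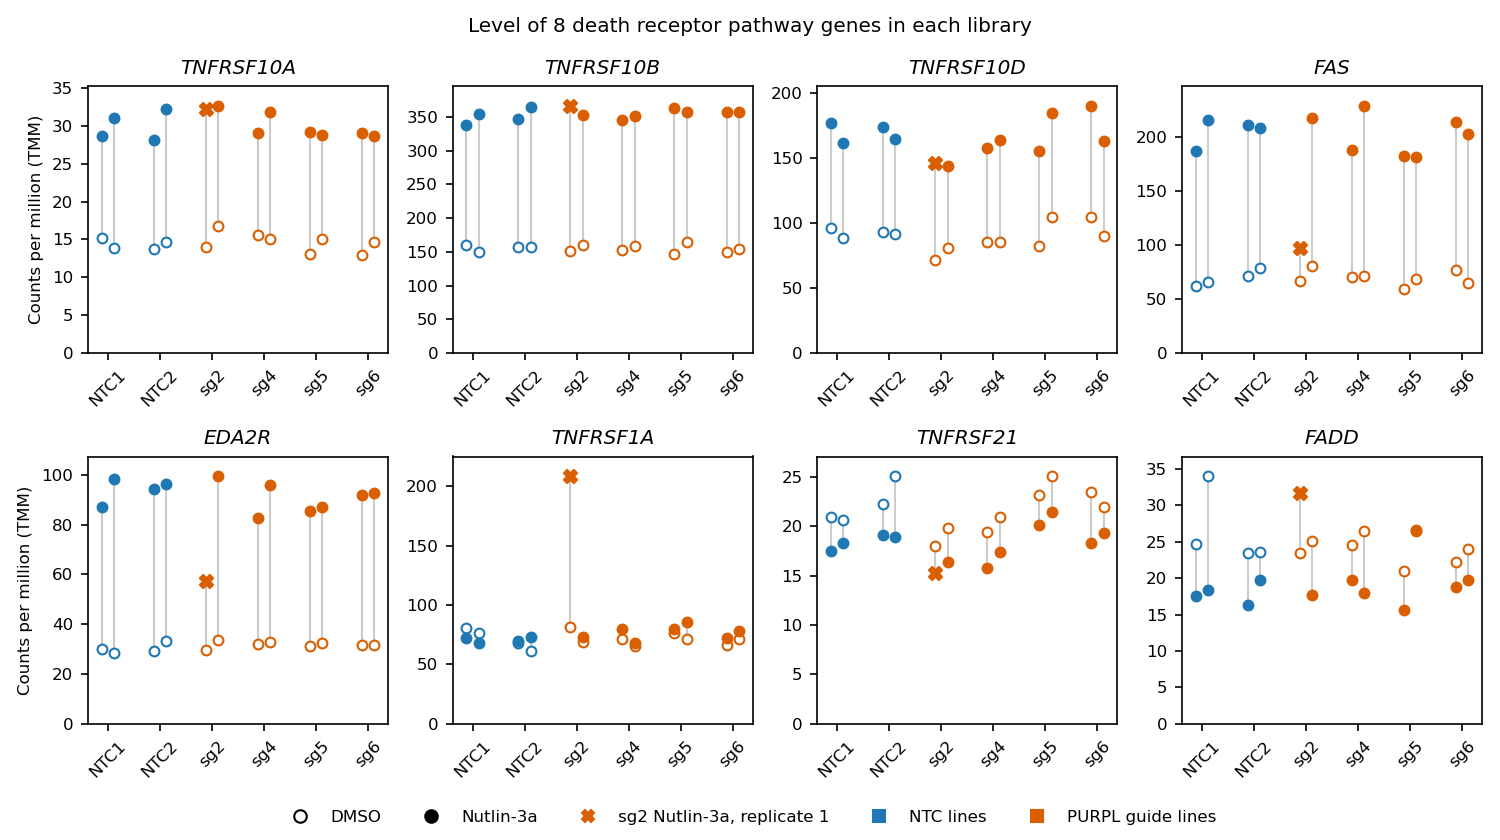
TMM-scaled CPM of the 8 tested genes in each library, by line (2 replicates side by side), with open symbols for DMSO, filled symbols for Nutlin-3a and a cross for the divergent library; grey lines join libraries of 1 line and replicate number only to guide the eye. The 5 genes that rose have no overlap between treatments, and the cross lies apart for FAS (97.5 CPM), EDA2R (57.3 CPM), TNFRSF1A (208.3 CPM) and FADD (31.7 CPM).

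TNFRSF21 (death receptor 6), a death domain receptor, was the only member that fell under the threshold used with all libraries. NTC libraries had 21.0, 20.6, 22.3 and 25.1 CPM with DMSO and 17.5, 18.3, 19.1 and 18.9 CPM with Nutlin-3a. With PURPL repressed it ran from 18.0 (median 21.4) to 25.1 CPM and from 15.2 (median 17.8) to 21.5 CPM. The treatments overlap across lines, but within each of the 6 lines both Nutlin-3a replicates were below both DMSO replicates. The change was small: it fell by 0.26 on the log2 scale (SE 0.08, edgeR adjusted p = 0.0453) in the NTC lines and by 0.26 (SE 0.05, edgeR adjusted p = 0.00237) in the PURPL guide lines. Without the divergent library the log2 change was -0.30 (SE 0.06) in the NTC lines and -0.26 (SE 0.05) in the PURPL guide lines, and both were called. The call in the NTC lines held in 20 of 31 alternative fits and was lost in 11, with log2 changes between -0.31 and -0.23 there. Among those 11 were the fits without any 1 of the 4 NTC libraries with Nutlin-3a and without replicate 3 of NTC1 or NTC2 with DMSO.

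FADD, the adaptor that links FAS and the TRAIL receptors to caspase-8, pointed downwards but did not pass the test with all libraries. NTC libraries had 24.6, 34.0, 23.5 and 23.6 CPM with DMSO and 17.5, 18.3, 16.4 and 19.8 CPM with Nutlin-3a, with no overlap. Its range in the PURPL guide lines was 20.9 (median 24.2) to 26.7 CPM with DMSO and 15.6 (median 19.2) to 31.7 CPM with Nutlin-3a. The ranges of the PURPL guide lines overlapped, through the divergent library at 31.7 CPM and sg5 replicate 3 at 26.5 CPM. The log2 change was -0.54 (SE 0.18, edgeR adjusted p = 0.0876) in the NTC lines and -0.21 (SE 0.13, edgeR adjusted p = 0.203) in the PURPL guide lines. Without the divergent library it was -0.58 (SE 0.14, edgeR adjusted p = 0.00529) and -0.35 (SE 0.10, edgeR adjusted p = 0.0152), so FADD then counted as lower in both. In that fit 5 members rose and 2 fell in either set of lines, where 8.88% of all genes rose and 15.9% fell in the NTC lines (24.8% in all) and 15.9% and 22.7% in the PURPL guide lines (38.5% in all). With the trend of each library on GC content removed and all libraries kept, the change was -0.42 (adjusted p = 0.0705) in the NTC lines and -0.54 (adjusted p = 0.000902) in the PURPL guide lines, where 46.2% of all genes were then called. With the trend removed and the divergent library left out, a fit added after seeing the data, the values were -0.42 (adjusted p = 0.000603) and -0.43 (adjusted p = 1.38e-05). In the NTC lines FADD was also called by DESeq2 with all libraries (log2 -0.52, adjusted p = 0.0488) and by edgeR without NTC1 DMSO replicate 1 (-0.75, adjusted p = 0.0386), without sg5 Nutlin-3a replicate 1 or 3 (adjusted p = 0.0403 and 0.0334) or without sg2 Nutlin-3a replicate 3 (adjusted p = 0.0056). Most alternative fits left FADD uncalled, 24 of 31 in the NTC lines and 28 of 31 in the PURPL guide lines. For either set of lines 24 of the 31 fits leave out 1 library. They share most of their data with the fit on all libraries and are not separate checks. FADD has a GC content of 58.6% in its transcript, the highest of the 10 members. Its highest levels with Nutlin-3a were in the divergent library and sg5 replicate 3, and with DMSO in NTC1 replicate 3. These are the 3 libraries with the steepest GC slopes, at 1.49, 0.34 and 0.30. Whether GC content played a part in these levels was not tested.

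TNFRSF1A, the main receptor of TNF, showed no change that passed the test. NTC libraries had 80.1, 76.2, 68.2 and 61.5 CPM with DMSO and 71.8, 67.8, 69.3 and 73.0 CPM with Nutlin-3a. In the PURPL guide lines it ran from 65.4 (median 71.0) to 81.7 CPM and from 68.0 (median 78.6) to 208.3 CPM. The value of 208.3 CPM is the divergent library, and the other 7 lay at or below 86.0 CPM. The log2 change was -0.02 (95% interval -0.46 to 0.43, edgeR adjusted p = 0.988) in the NTC lines and 0.33 (0.01 to 0.64, edgeR adjusted p = 0.0953) in the PURPL guide lines. Without the divergent library it was -0.05 (-0.20 to 0.10) and 0.08 (-0.04 to 0.19), so a change of the size seen in the genes that rose lies outside those intervals. The GC content of its transcript is 57.5%.

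The response by line repeated these patterns. The 5 genes that rose did so in each of the 6 lines and in 12 of 12 pairs of libraries of the same line and replicate number, and TNFRSF21 was lower in 12 of 12. FADD was lower in 11 of 12, with the divergent library as the exception, and TNFRSF1A was higher in 10 of 12, with log2 differences from -0.17 to 1.35. Replicate numbers were not taken to pair the samples, and the counts for FADD and TNFRSF1A depend on which replicates are matched. The direction changes with the matching for FADD in sg5 and for TNFRSF1A in sg2 and sg4. For the genes that rose and for TNFRSF21, the treatments did not overlap within any line. The share of all genes with such agreement is not given here, so it is not shown to be particular to these members. For FAS the log2 response of sg2 was 1.09 (SE 0.25) with the divergent library and 1.52 (SE 0.13) without it, and the other 5 lines lay between 1.48 and 1.66. For EDA2R the corresponding values for sg2 were 1.30 (SE 0.18) and 1.61 (SE 0.10), with the other 5 lines between 1.44 and 1.66.

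**Figure D3:**
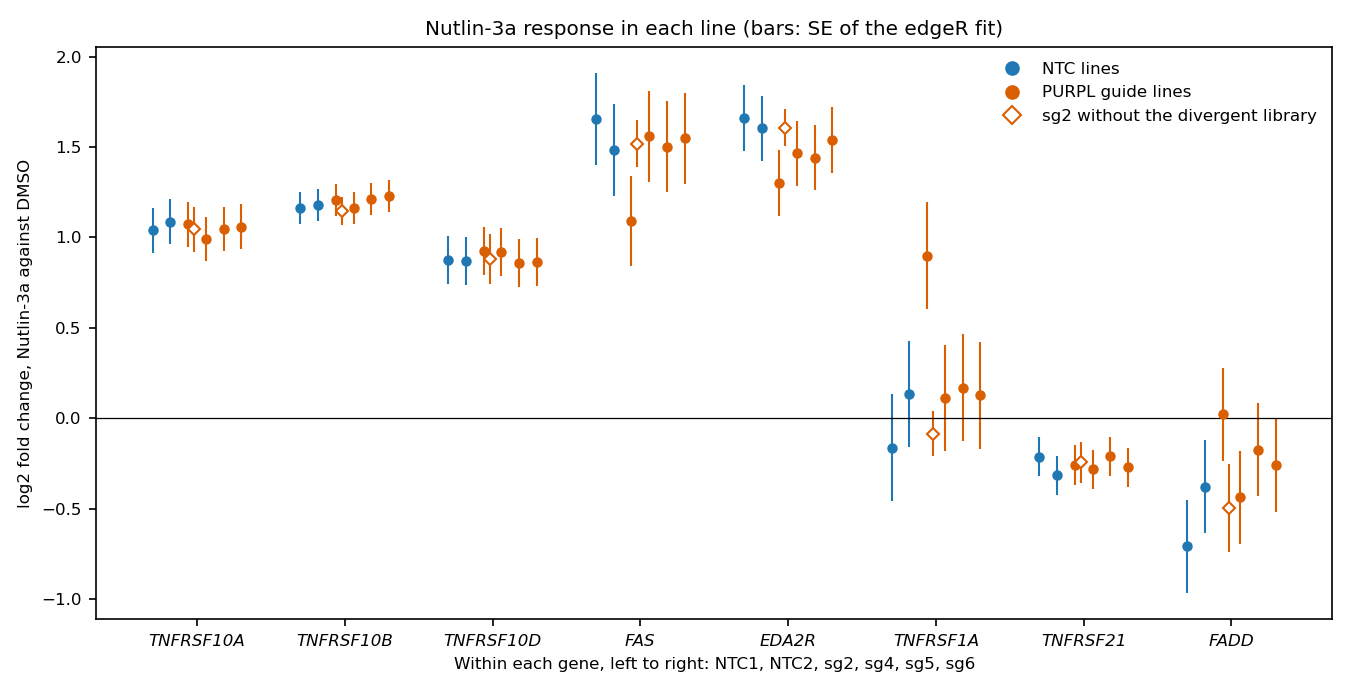
log2 fold change with Nutlin-3a for each gene and line from the edgeR model of 12 group means, with SE bars, NTC lines in blue and PURPL guide lines in orange; the open diamond is sg2 without the divergent library. The receptors TNFRSF10A, TNFRSF10B and TNFRSF10D lie within 0.86 to 1.23 in all lines, and the sg2 values of FAS, EDA2R, TNFRSF1A and FADD move when that library is left out.

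The next question was whether repression of PURPL changes these genes. No member differed between the 4 PURPL guide lines and the 2 NTC lines in DMSO (edgeR, 0 of 8 with adjusted p under 0.05 and 0 with an unadjusted p under 0.05, and 0 with DESeq2), where 0.00601% of 16648 genes were called, namely PURPL. In Nutlin-3a the same counts were 0, 0 and 0, where 0% of 16900 genes were called, and for the difference of the Nutlin-3a responses they were 0, 0 and 0, where 0% of 17264 genes were called. PURPL itself had a log2 difference of -4.16 (SE 0.34) in Nutlin-3a with an edgeR adjusted p of 0.432. The lack of a call in that comparison with all libraries therefore says little by itself. Without the divergent library the members' count in Nutlin-3a was again 0, where 0.00596% of genes were called, namely PURPL (log2 -4.06, SE 0.17, edgeR adjusted p = 4.88e-05). DESeq2 called 0.0444% of all genes in DMSO, 0.0109% in Nutlin-3a and 0.00677% for the difference of responses. The share of all genes with an unadjusted p under 0.05 is not given here. All of these tests take the line as the replicate.

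The intervals show what size of difference remained possible. In DMSO the log2 differences of the 8 members ran from -0.15 (FADD, 95% interval -0.38 to 0.08) to 0.07 (EDA2R, -0.07 to 0.22). For TNFRSF10B the difference was -0.01 (-0.14 to 0.12) in DMSO and 0.02 (-0.12 to 0.17) in Nutlin-3a, and the difference of responses was 0.00 (-0.20 to 0.20). TNFRSF10A and TNFRSF10D had differences of responses of -0.06 (-0.29 to 0.17) and -0.01 (-0.21 to 0.19). Intervals were wider for 4 genes, of which FAS, EDA2R and TNFRSF1A have outlying values in the divergent library: the difference of responses was -0.18 for FAS (-0.64 to 0.28), -0.23 for EDA2R (-0.52 to 0.05), 0.32 for TNFRSF1A (-0.27 to 0.92) and 0.32 for FADD (-0.07 to 0.72). Without that library these became -0.03 (-0.20 to 0.14), -0.12 (-0.31 to 0.07), 0.10 (-0.13 to 0.32) and 0.22 (-0.07 to 0.50). For FADD the sign turned when the GC trend was removed, to -0.21 with all libraries and -0.01 without the divergent one. FADD in DMSO was called lower in the guide lines, by 0.31 on the log2 scale (SE 0.06, adjusted p = 0.00179), when NTC2 was left out, which leaves NTC1 as the only control line and assumes that it varies like the others. In that fit 36.8% of 17167 genes were called, so 1 of 8 members is below the share over all genes.

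**Figure D4:**
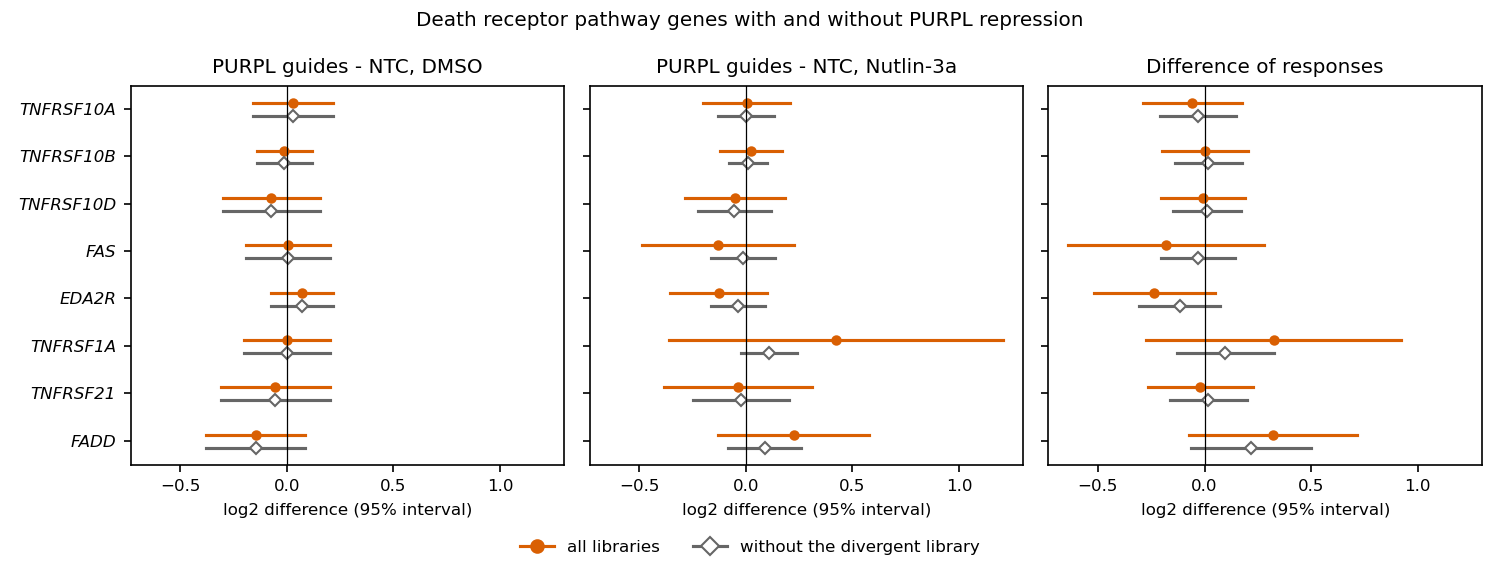
log2 difference between PURPL guide and NTC lines in DMSO, in Nutlin-3a, and of the Nutlin-3a responses, for the 8 tested genes, with 95% intervals of the edgeR fit on line sums, with all libraries (orange) and without the divergent library (grey). All intervals of the DMSO panel include 0, and those of FAS, EDA2R, TNFRSF1A and FADD narrow in the other panels without that library.

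Differences among the 6 lines, whatever their guide, were not called for any member either (edgeR F test, 0 of 8 in each treatment). Over all genes 0.0183% were called in each treatment. The unadjusted p of that test was under 0.05 for 1 member in DMSO and 2 in Nutlin-3a. The share of all genes at that unadjusted threshold is not given here. In DMSO the member with the smallest p was TNFRSF21, at 24.1 CPM in sg5 and 18.9 CPM in sg2 (unadjusted p = 0.0336, edgeR adjusted p = 1). With Nutlin-3a these were TNFRSF1A (unadjusted p = 0.019, edgeR adjusted p = 0.157), at 140.6 CPM in sg2 and 69.8 CPM in NTC1, and TNFRSF21 (unadjusted p = 0.0273, edgeR adjusted p = 0.19), at 20.8 CPM in sg5 and 15.8 CPM in sg2. Without the divergent library the largest difference among lines for TNFRSF1A in Nutlin-3a shrank from 1.01 to 0.27 on the log2 scale, and 0 of 8 members were called in either treatment, where 0.0659% of genes were called in DMSO and 0.0599% in Nutlin-3a.

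Other genes of the pathway were taken from 5 lists: other ligands, other receptors, adaptors with initiator caspases, inhibitors, and the mitochondrial arm with executioners. Of the 42 genes tested, 6 rose and 2 fell in the NTC lines, beside the 4.18% and 4.03% given above for all genes; 10 rose and 7 fell without the divergent library, where 8.88% and 15.9% of all genes did. With PURPL repressed 14 rose and 3 fell, beside 17.7% and 16.5% of all genes, and 13 rose and 6 fell without the divergent library, beside 15.9% and 22.7%. Among other receptors, 1 of 6 tested rose and 1 fell: TNFRSF14, the receptor of the ligand LIGHT, rose from 0.363 to 1.68 CPM (log2 2.25, SE 0.54, edgeR adjusted p = 0.0176), and TNFRSF19, an orphan receptor, fell from 3.32 to 1.88 CPM (log2 -0.81, SE 0.20, adjusted p = 0.0224). In the PURPL guide lines 3 rose and 1 fell there, with TNFRSF25, a death domain receptor, and LTBR, the lymphotoxin beta receptor, added to TNFRSF14. LTBR was not called without the divergent library. Of the ligands 0 of 2 tested were called in the NTC lines, while in the PURPL guide lines TNFSF12 rose and EDA fell.

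Among 9 adaptors and initiator caspases tested, CASP10, a death receptor caspase, rose (5.07 to 11.3 CPM in the NTC lines, log2 1.15, SE 0.16, edgeR adjusted p = 0.000187) and MLKL, the executioner of necroptosis, fell (12.3 to 9.50 CPM, log2 -0.38, SE 0.09, adjusted p = 0.0159). CASP8, the caspase that FADD recruits, had 67.1 and 70.6 CPM (log2 0.08, SE 0.10, edgeR adjusted p = 0.796), and RIPK3 was at 0.0124 CPM or less. PIDD1 had a log2 change of 1.19 (SE 0.68, edgeR adjusted p = 0.385) in the NTC lines, which passed without the divergent library (1.15, adjusted p = 0.00896), and rose in the PURPL guide lines (2.70, SE 0.49, adjusted p = 0.000816; 1.63 without that library). Of the 9, 3 rose and 1 fell in the PURPL guide lines, and 2 and 2 without the divergent library, where DAXX was the added gene that fell.

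Of 12 inhibitors tested 2 rose and 0 fell in the NTC lines. BIRC3, an inhibitor of apoptosis protein, rose from 37.0 to 56.8 CPM (log2 0.63, SE 0.16, edgeR adjusted p = 0.0274). CFLAR, which encodes the caspase-8 inhibitor c-FLIP, rose from 107 to 128 CPM (log2 0.26, SE 0.07, edgeR adjusted p = 0.0351). Both also rose in the PURPL guide lines, by log2 0.32 (edgeR adjusted p = 0.0474) and 0.14 (edgeR adjusted p = 0.0427), where SHARPIN was the third. Without the divergent library SHARPIN was not called there, but an inhibitor other than these was called higher. Of 13 genes of the mitochondrial arm 2 rose and 0 fell in the NTC lines. APAF1, the core of the apoptosome, rose from 80.3 to 191 CPM (log2 1.27, SE 0.18, edgeR adjusted p = 0.000277), and BCL2L1, which encodes the apoptosis inhibitor BCL-XL, rose from 61.6 to 118 CPM (log2 0.94, SE 0.20, adjusted p = 0.00715). In the PURPL guide lines BAX and BAK1, both pore formers of the mitochondrial outer membrane, were called as well (log2 1.49, SE 0.27, edgeR adjusted p = 0.000651, and 1.29, SE 0.17, adjusted p = 5.79e-05), and without the divergent library both passed in the NTC lines too. BID, which links caspase-8 to mitochondria, had a log2 change of -0.29 (edgeR adjusted p = 0.202) in the NTC lines, and of -0.32 (adjusted p = 0.00181) without that library. No gene of the 5 lists was called in the comparisons of PURPL guide and NTC lines or in the difference of responses (edgeR, smallest adjusted p 0.825 in DMSO, 0.676 in Nutlin-3a and 0.533 for the responses).

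**Figure D5:**
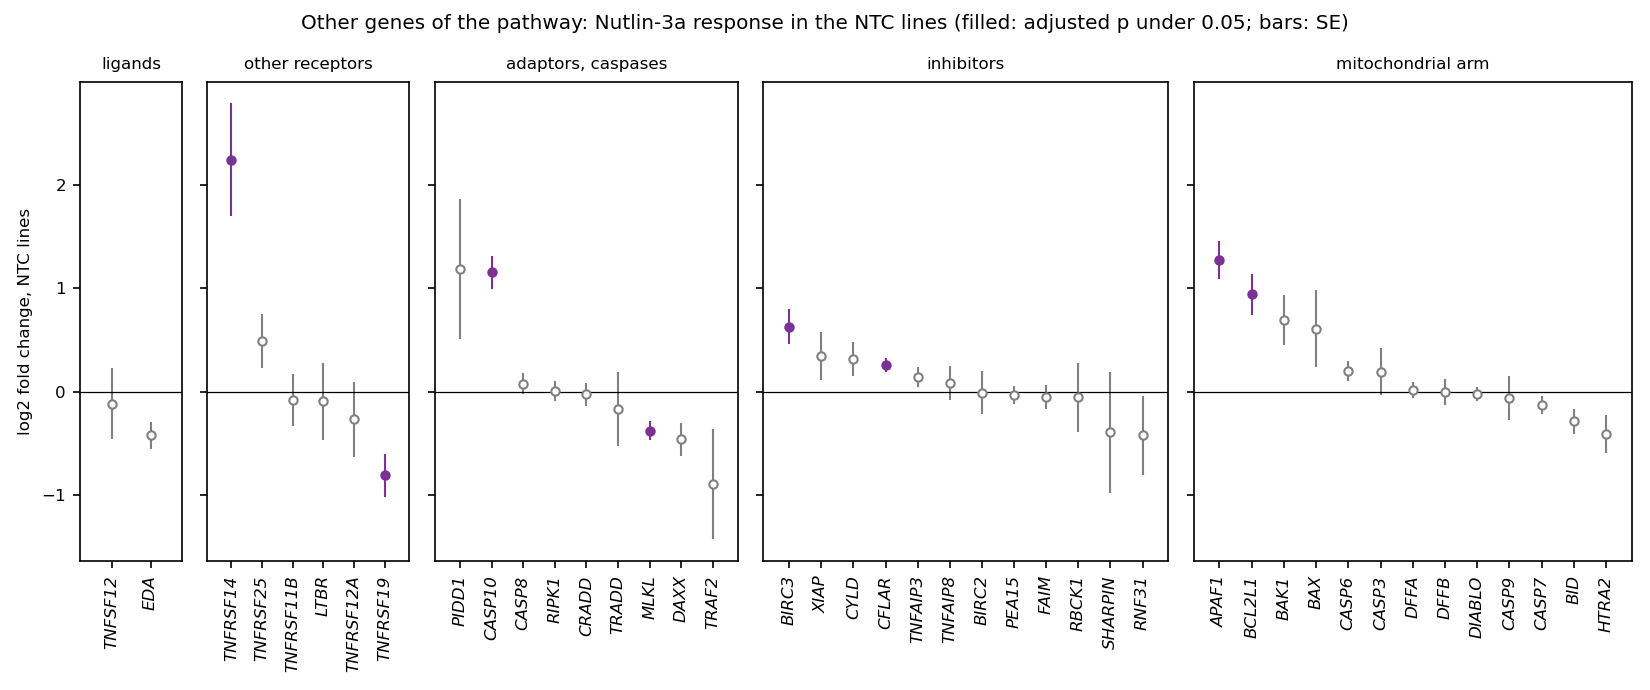
log2 fold change with Nutlin-3a in the NTC lines (edgeR, with SE bars) for the tested genes of the 5 lists, sorted within each list; filled symbols passed an adjusted p of 0.05. TNFRSF14 (2.25), APAF1 (1.27), CASP10 (1.15), BCL2L1 (0.94), BIRC3 (0.63) and CFLAR (0.26) rose, and TNFRSF19 (-0.81) and MLKL (-0.38) fell.

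Across the 23 libraries other than the divergent one, the genes whose log2 CPM followed the members most closely were found for each member. For the 5 members that rose these were 14 different genes, among them the member EDA2R. All 14 rose with Nutlin-3a in both sets of lines (edgeR adjusted p under 0.05), with or without the divergent library. Over all genes 4.18% rose in the NTC lines and 17.7% in the PURPL guide lines. The 14 were picked for following members whose levels part by treatment, so this count was fixed by the choice and is no separate result. For TNFRSF10B these were RNF19B (Pearson r 0.998), BTG2 (0.996) and AL158206.1 (0.996), and for FAS TIGAR (0.997), BLOC1S2 (0.996) and BTBD10 (0.996). EDA2R was closest to TIGAR (0.997), TP53INP1 (0.996) and SESN1 (0.996), and TNFRSF10A to CDH10 (0.992), EDA2R (0.990) and NBEAP1 (0.990). TNFRSF10D was closest to INKA2 (0.976), GRIN2C (0.970) and TGFA (0.970). The members that did not rise had 9 other neighbours, of which 0 were called in the NTC lines, while 1 rose and 3 fell in the PURPL guide lines; without the divergent library 0 rose in either set, and 5 fell in the NTC and 6 in the PURPL guide lines. They were GRWD1, POLR3K and EEF1AKNMT for FADD (0.971, 0.969 and 0.968), OGDHL, PDK2 and HDAC6 for TNFRSF1A (0.913, 0.888 and 0.887), and SNTB1, KIT and SNCAIP for TNFRSF21 (0.876, 0.871 and 0.868). These coefficients describe 23 libraries that share treatment, depth and GC slope, and carry no test. The neighbours were picked from the same libraries, so the counts of neighbours called are a description too.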

How the data were processed

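Polyadenylated RNA of 24 libraries was sequenced with a stranded kit, as the labels' protocols say. Values in the deposited table are estimated counts of each gene, made by the authors with cutadapt, STAR and RSEM on hg38 per the submitters' processing notes, which also name DESeq2; the sources used here give neither versions nor the strand setting. Estimated counts need not be whole, and 5.60% to 7.16% of a library's values were not; they were rounded. The 45 second-copy pseudoautosomal entries (0.0222% of counts) were added to their X entries. Of 58825 IDs, 47420 were found in GENCODE 29 with their version and 58552 without it.

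Counts were tested with edgeR 4.0.16 (R 4.3.3; TMM, filterByExpr with a minimum count of 10, robust quasi-likelihood F test), with p-values adjusted by Benjamini-Hochberg over all genes tested and called at 0.05. Nutlin-3a responses and differences among lines came from 1 model of 12 group means over 24 libraries. PURPL guide and NTC lines were compared on sums of the 2 replicates, 4 lines against 2, and the responses on 12 sums with a term for each line. Intervals are 95%; floors of 3 counts cover counting error only. The text names all 10 members, the checks PURPL, CDKN1A and MDM2, the 3 genes most alike to each member, and from each list up to 4 called genes with the smallest p; ACTA2, RHOBTB2 and AC100861.1 were named for their overlap. CASP8, FASLG, TNF, RIPK3, DAXX and BID were named after their values were seen. The members and lists were chosen with earlier results of these data known. Alternatives were RLE factors, DESeq2 1.42.0, no filter, a 1 CPM filter, removal of the GC trend (GC content known for 99.7% of genes), a block for the replicate number and each library or line left out; removal of the GC trend together with the divergent library was added after seeing the data.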

Additional observations from a re-analysis of the deposited data

Results flagged for a closer look

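In 32 groups of libraries (8 genes, NTC or PURPL guide lines, DMSO or Nutlin-3a), 4 held a value whose gap to the nearest other, as a share of the whole range, exceeded Dixon's critical value; chance alone gives about 1 in 20 groups. Of these values 3 are in the divergent library, among 8 libraries each: FAS was the lowest at 97.5 CPM, next to 182.0, EDA2R the lowest at 57.3 CPM, next to 82.6, and TNFRSF1A the highest at 208.3 CPM, next to 86.0. The GC content of these transcripts is 39.1%, 45.2% and 57.5%, and the divergent library's GC slope is 1.49; with the GC trend removed, the difference of responses was 0.05 for FAS, -0.11 for EDA2R and -0.13 for TNFRSF1A. The other flag is FADD in the NTC lines with DMSO, where NTC1 replicate 3 was the highest of 4 libraries at 34.0 CPM, next to 24.6. The cause of the 4 flagged values was not tested.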

How the results depend on the processing

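The number of members called stayed between 5 and 7 for the Nutlin-3a response of both sets of lines (6 with all libraries), also over the fits that leave out 1 library (5 to 7 in the NTC lines, 6 to 7 in the PURPL guide lines). The share of all genes called moved with the setting. Without the filter it was 2.8% in the NTC lines and 13.3% in the PURPL guide lines. With the GC trend removed it was 23.3% and 46.2%. It was 0 under every setting run for PURPL guide against NTC lines in Nutlin-3a, the difference of responses and the lines in DMSO. In DMSO it was 0 to 1 over the fits that leave out a library or line, with 1 when NTC2 was left out, where 36.8% of all genes were called. Among lines in Nutlin-3a it was 2 with DESeq2 (13.0% of all genes, against 0.0183%) and 0 to 4 over the fits that leave out a library. The 4 came without sg2 Nutlin-3a replicate 3, which leaves sg2 the divergent library alone: TNFRSF1A, FAS, EDA2R and TNFRSF21, where 61.3% of all genes were called. TNFRSF1A was then also called higher in the PURPL guide lines (log2 0.45), where 65.2% of genes were called. Of 1672 values of single members under alternatives, 1644 kept their side of the threshold, 12 lost a call (all TNFRSF21) and 16 gained one. The 2 members called by DESeq2 among lines in Nutlin-3a are not part of this count, which leaves out the DESeq2 tests among lines. A further count, 112 values that changed sign, concerned values not called under either setting, at most 0.21 in size. The log2 changes of the genes that rose ranged over all settings from 0.97 to 1.10 (TNFRSF10A), 1.10 to 1.21 (TNFRSF10B), 0.80 to 0.91 (TNFRSF10D), 1.45 to 1.61 (FAS) and 1.55 to 1.67 (EDA2R) in the NTC lines. TNFRSF21 was not called in the PURPL guide lines without the filter (-0.24, adjusted p = 0.171). Without the divergent library 24.8% of genes were called in the NTC lines, against 8.21%, and 4137 genes against 1344; with the GC trend removed 3802 were. Replicate numbers were not taken to pair the samples. The 66 correlations of replicate deviations ran from -0.53 to 0.44, and 20 exceeded 0.1. For the same line with DMSO and Nutlin-3a, 6 ran from 0.034 to 0.288, and 3 exceeded 0.1. These 6 were all positive, so a weak pairing within lines is not excluded. With the replicate block TNFRSF21 was lost in the NTC lines (edgeR adjusted p = 0.0968) and 804 genes were called there in place of 1344. The cause of these changes was not tested. Depth limits TNFSF10 and TNFRSF10C.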

Other observations

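The balance of TRAIL receptors with and without a complete death domain was computed for each library as the summed CPM per kb of TNFRSF10A and TNFRSF10B over that of TNFRSF10C and TNFRSF10D. It was 1.71 ± 0.181 (SD, n = 12 libraries) with DMSO, from 1.39 to 2.06, and 2.09 ± 0.206 (SD, n = 12) with Nutlin-3a, from 1.80 to 2.43. In the NTC lines it was 1.64 ± 0.0208 and 2.01 ± 0.153 (SD, n = 4 each), and in the PURPL guide lines 1.74 ± 0.218 and 2.13 ± 0.226 (SD, n = 8 each). The ratio was higher with Nutlin-3a in 12 of 12 pairs of the same line and replicate number. The ratio of TNFRSF10B to TNFRSF10A was 7.00 ± 0.398 with DMSO and 7.73 ± 0.387 with Nutlin-3a (SD, n = 12 each). Both ratios depend on the transcript lengths used and were defined after the data were seen, so they carry no test.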
